A study of Drosophila melanogaster with 4 samples.

Results

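The cytosolic ribosomal protein genes of Drosophila melanogaster were described in whole embryos in which the replication-coupled histone H3.2 was either wild type or carried arginine in place of lysine at position 4 (H3.2-K4R). Members were taken from the count table by symbol, as every gene whose name begins with RpL, RpLP or RpS followed by a number, together with stubarista (sta), the small subunit protein related to the laminin receptor. The rule used no measured value, and it found 93 of the 16727 genes of the table, 54 of the large subunit and 39 of the small subunit. All 93 were matched to the annotation by their FlyBase identifiers.

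The study compared 2 libraries of genotype deltaHisC; 12xH3.2-WT with 2 libraries of genotype deltaHisC; 12xH3.2-K4R. The first are called controls here and the second mutants. In either group the natural histone gene complex was deleted and a transgene of 12 histone gene copies stood in for it, wild type or mutant, so the control is a rescued deletion and not an unmodified strain. Eggs were collected for 2 h at 25 °C and aged for 16 h, which gives an age of 16 to 18 h, and embryos homozygous for the deletion were picked by GFP. The labels give neither the sex of the embryos nor the number pooled per library, and nothing says that the replicates were separate collections, so the spread that the p-values rest on may be that of technical repeats.

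A cytosolic ribosome is built in the nucleolus from ribosomal RNA and 1 copy of nearly every ribosomal protein, and the messenger RNAs of these proteins are among the most abundant in growing cells. In flies their translation is controlled largely through a pyrimidine stretch at the start of the mRNA and the TOR pathway. Loss of 1 copy of many of these genes gives the Minute phenotype of slow development and thin bristles. Several members have a second copy that is used mostly in the germ line. Methylation of H3 lysine 4 marks the promoters of active genes, and the study asked what the lysine itself contributes.

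The libraries held between 33882742 and 45509930 counted read pairs. Expression is given as CPM, the count scaled to library size with TMM factors, and levels of different genes are compared only as CPM per kilobase of exon. The mutant libraries differed from each other. Mutant replicate 2 was the lowest of the 4 libraries for 34.6% of all tested genes, against 19.4% for mutant replicate 1. With 2 libraries in the group, these shares cannot show which of them is atypical. Markers of muscle, neurons, glia and cuticle were detected. On the list for fat body and hemocytes, Lsp2 and Fbp1 had at most 1.08 and 0.304 CPM. The other genes of that list, Hml and srp, had 27.3 to 60.8 CPM and 141 to 203 CPM. The 5 muscle markers summed to 22118 and 20672 CPM in the controls and 17468 and 15181 CPM in the mutants. All 5 muscle markers had fitted fold changes below 0, beside 51.9% of all tested genes, and 0 passed in edgeR. At an unadjusted p under 0.05, 4 lay lower, beside 9.2%. DESeq2 called 1 lower and limma-voom 0, beside 3.07% and 0.623% of the genes they tested. The 5 neuronal markers summed to 1756 and 1885 CPM in the controls and to 2062 and 2091 CPM in the mutants. The part of these cell types in the results was not tested. In whole-embryo RNA, fewer cells of a type and less RNA per cell cannot be told apart.

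The ribosomal protein genes took up a smaller share of the library in both mutant samples. They held 8.675% and 7.8341% of counted pairs in control replicates 1 and 2 and 6.1141% and 4.9763% in mutant replicates 1 and 2. The groups did not overlap, and mutant replicate 2 was the lowest. The means were 8.255% ± 0.5946 (SD, n = 2) and 5.545% ± 0.8045 (SD, n = 2). An exact permutation test of 2 libraries against 2 cannot give a p below 0.333, and no test of the share was made. Wilson 95% intervals of the shares were narrow, for example from 4.9693% to 4.9834% in mutant replicate 2, and they cover counting error only. In TMM-scaled CPM the summed level of all members in the mutants was 0.688 of that in the controls.

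**Figure D1:**
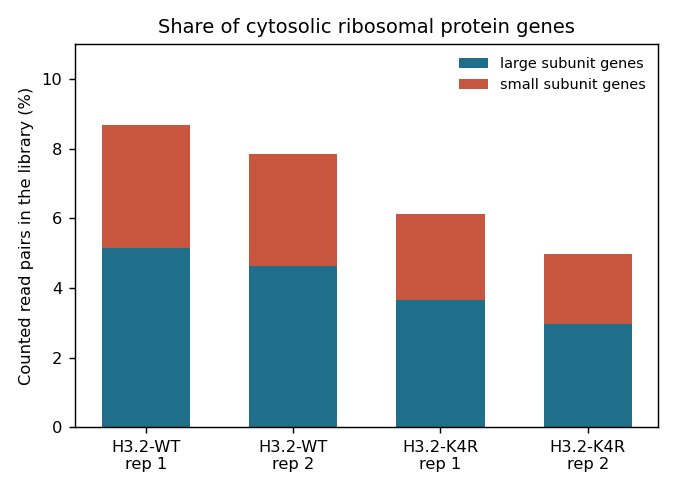
Percentage of all counted read pairs that fell in the cytosolic ribosomal protein genes, one bar per library, split into large and small subunit. The control bars reach 8.675% and 7.8341% and the mutant bars 6.1141% and 4.9763%.

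Of the 93 members, 88 passed the filter on low counts, 51 of the large and 37 of the small subunit. edgeR's quasi-likelihood test with Benjamini-Hochberg adjustment over all 11562 tested genes called 0 of these 88 at an adjusted p of 0.05, beside 0.588% of all tested genes (0.173% lower and 0.415% higher). The smallest adjusted p among members was 0.076. At an unadjusted p under 0.05, 64 members lay lower in the mutants and 0 lay higher, beside 9.2% and 7.68% of all tested genes. DESeq2 called 43 members lower and limma-voom called 6, beside 3.07% and 0.623% of the genes they tested. Neither called a member higher, beside 3.58% and 0.874%. With no filter on low counts edgeR called 56 members lower and 0 higher, beside 3.8% and 3.26% of all genes, and without mutant replicate 1 it called 50 lower and 0 higher, beside 4.91% and 2.1%. In that last fit the mutant group is replicate 2 alone, the spread comes from the controls, and the lone library is assumed to vary like them.

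Direction was shared by nearly the whole family. The fitted log2 fold change lay below 0 for 86 of the 88 members, beside 51.9% of all tested genes, and the median was -0.62, beside -0.02 over all tested genes. The middle 50% of members ranged from -0.77 to -0.40. Both mutant libraries lay below both control libraries for 81 members, which is 92.0% of them beside 27.5% of all tested genes. Both lay above for 1 member, the relative RpLP0-like, beside 23.6%. The groups overlapped for the other 6, among them RpL34b, RpL24-like, RpS19b, RpS10a and RpL35. Members also shared a direction between libraries of the same group. Of the 85 with a mean of at least 10 CPM, 77 lay lower in control replicate 2 than in control replicate 1. In mutant replicate 2, 70 lay lower than in mutant replicate 1. Of 1760 other genes with at least 100 CPM, 722 and 706 did so. Members share their libraries, so their number is no measure of replication.

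**Figure D2:**
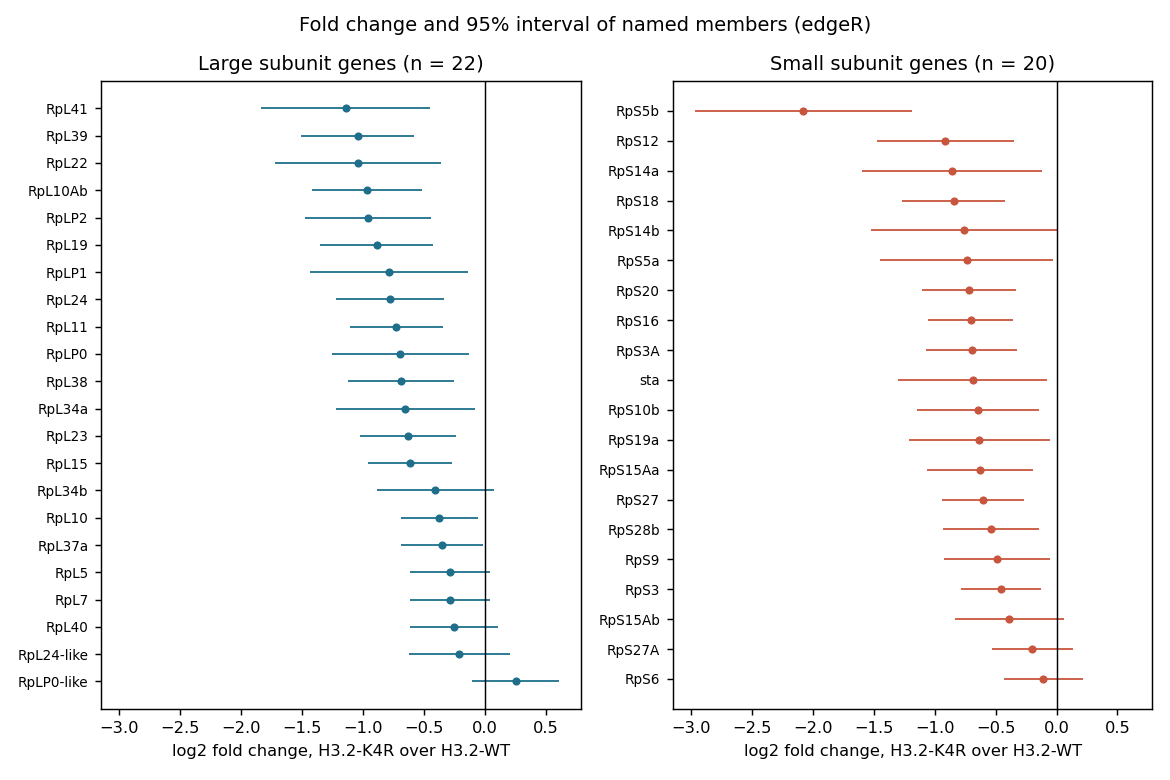
Fitted log2 fold change of the mutants over the controls (horizontal) for 42 of the members given by name here, each with a mean of at least 10 CPM, in separate panels for 22 large and 20 small subunit genes. Points are edgeR values and lines their 95% intervals, running from -2.08 for RpS5b to 0.25 for RpLP0-like.

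The summed levels of both subunits lay lower in the mutants by similar factors. Large subunit genes held 5.1609% and 4.6188% of counted pairs in the controls and 3.653% and 2.9689% in the mutants, and small subunit genes held 3.5141% and 3.2153% in the controls and 2.4611% and 2.0075% in the mutants. The summed level in the mutants was 0.6934 of that in the controls for the large subunit and 0.6801 for the small subunit. In summed CPM, the large subunit genes held 1.469 and 1.436 times the small subunit genes in the controls and 1.484 and 1.479 times in the mutants, so the mutants lay above the controls by a margin smaller than the gap between the controls. Per kilobase of exon, the large subunit genes summed to 1.63, 1.58, 1.627 and 1.591 times the small subunit genes in control replicates 1 and 2 and mutant replicates 1 and 2. The ratios per kilobase overlapped between the groups, so the order of the groups depended on the scale.

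Taken gene by gene, the median log2 fold change was -0.55 over the 51 large subunit genes, of which 50 lay below 0, and -0.67 over the 37 small subunit genes, of which 36 lay below 0. The difference between the medians was 0.12, and it was 0.028 without mutant replicate 2 and 0.215 without mutant replicate 1. At an unadjusted p under 0.05, 34 large and 30 small subunit genes lay lower, beside 9.2% of all tested genes.

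Levels per length differed widely between members. The mean over the 4 libraries ran from 0.587 to 2800 CPM per kilobase over the tested members, with a median of 849. Of the 88, 64 had at least 500 CPM per kilobase and 8 had under 100. The 8 were second copies or relatives of another member, except that RpL38, a small protein of the large subunit with 113, 98.3, 75.4 and 55.8 CPM, has no such partner.

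By that mean, the top of the large subunit was RpL41, the shortest protein of the ribosome, with 4410 and 3304 CPM per kilobase in the controls and 2310 and 1178 in the mutants. RpL23, a protein on the face of the subunit that meets the small one, had 3169, 3052, 2278 and 1743 in the same order of libraries. Both were lowest in mutant replicate 2. Among the highest of the small subunit was RpS9, with 1505, 2137, 1290 and 1304 CPM per kilobase, whose control libraries lay further apart than its mutant libraries.

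Among large subunit genes, RpL39 had the smallest unadjusted p. RpL39 (chromosome 2R, 24061853 to 24062431, minus strand, dm6) encodes one of the smallest ribosomal proteins, which lines the tunnel through which the new peptide leaves. Its level was 85.5 and 66.2 CPM in the controls and 41.2 and 32.3 CPM in the mutants, without overlap. The log2 fold change was -1.04 ± 0.20 (SE), with an adjusted p of 0.0812 in edgeR. RpL10Ab, a protein of the flexible L1 stalk, had 274 and 230 CPM in the controls and 151 and 106 CPM in the mutants. Its log2 fold change was -0.97 ± 0.20 (SE), with an adjusted p of 0.0931 in edgeR.

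RpL19, a core protein of the large subunit that also contacts the small one, had 1376 and 1294 CPM in the controls and 863 and 579 CPM in the mutants. RpL15, another core protein, had 1028 and 1060 CPM in the controls and 738 and 626 CPM in the mutants. For RpL41 (chromosome 2R, 24903416 to 24903935, minus strand) the values were 1411 and 1057 CPM in the controls and 739 and 377 CPM in the mutants. All 3 genes separated the groups, and in each mutant replicate 2 was the lower of its group. RpL41 had a log2 fold change of -1.15 ± 0.30 (SE, adjusted p = 0.152 in edgeR), which was -0.74 without mutant replicate 2 and -1.71 without mutant replicate 1, the latter with an adjusted p of 0.00557 in edgeR.

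The acidic stalk, made of RpLP0, RpLP1 and RpLP2, recruits the elongation factors to the ribosome. RpLP2 had 1239 and 1325 CPM in the controls and 815 and 504 CPM in the mutants. RpLP1 had 873, 696, 595 and 314 CPM in the same order, and RpLP0 had 1538, 1356, 1127 and 660. The 3 stalk genes kept the groups apart, and each was lowest in mutant replicate 2. Their log2 fold changes were -0.96 ± 0.22, -0.79 ± 0.28 and -0.69 ± 0.24 (SE), and the smallest adjusted p of the 3 in edgeR was 0.128. RpLP1 and RpLP0 had -0.40 and -0.36 without mutant replicate 2 and -1.32 and -1.14 without mutant replicate 1, the latter with adjusted p of 0.00812 and 0.0108 in edgeR.

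RpL5 and RpL11 bind the 5S ribosomal RNA and join the assembling subunit with it. RpL11 had 581 and 542 CPM in the controls and 383 and 295 CPM in the mutants, a log2 fold change of -0.73 ± 0.17 (SE). RpL5 had 1501, 1373, 1151 and 1205 CPM, a log2 fold change of -0.29 ± 0.14 (SE). The partners of this particle therefore had unequal fitted values, and the difference between them was not tested. RpL10, which joins late and sits near the peptidyl transferase centre, had 905, 877, 668 and 706 CPM. Like RpL5 it was not lower in mutant replicate 2 than in replicate 1.

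RpS18, a protein of the head of the small subunit, was among the small subunit genes with the smallest unadjusted p. It had 758 and 743 CPM in the controls and 489 and 347 CPM in the mutants, and its log2 fold change was -0.85 ± 0.18 (SE, adjusted p = 0.106 in edgeR). RpS16, which reaches with its tail towards the P site, had 640, 533, 376 and 344 CPM. RpS20 had 1097, 1003, 718 and 559 CPM and RpS27 had 665, 634, 462 and 393 CPM. RpS3A (chromosome 4, 65225 to 67207, minus strand), the only member on that chromosome, had 1031, 956, 684 and 543 CPM. These 5 genes were named for their low p. The control libraries were above the mutant libraries for all 5, as for 92.0% of the 88 tested members. The adjusted p of the 5 lay between 0.103 and 0.132 in edgeR.

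RpS12 is known in flies for its part in the competition between cells with different ribosomal protein dosage, upstream of the transcription factor Xrp1. It had 317 and 300 CPM in the controls and 208 and 119 CPM in the mutants, a log2 fold change of -0.91 ± 0.24 (SE, adjusted p = 0.155 in edgeR and 0.00992 in DESeq2). The value was -0.57 without mutant replicate 2 and -1.37 without mutant replicate 1, the latter with an adjusted p of 0.00424 in edgeR. RpS3, which lines the entry channel of the mRNA, had 1351, 1313, 1027 and 915 CPM. The gene sta had 1712, 1388, 1235 and 688 CPM. All 3 separated the groups.

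RpS6, the classical substrate of the TOR-dependent S6 kinase, was nearly level, with 1652 and 1608 CPM in the controls and 1535 and 1489 CPM in the mutants. Its log2 fold change was -0.11 ± 0.14 (SE) with a 95% interval from -0.43 to 0.21, and it was 0.001 after removal of the trend with exon length. RpS27A and RpL40 are made as fusions with ubiquitin and also supply that protein to the cell. RpS27A had 742, 656, 586 and 632 CPM, and RpL40 had 1089, 955, 926 and 788. Their log2 fold changes were -0.20 ± 0.14 and -0.25 ± 0.16 (SE), each nearer to 0 than the median of the family. They were -0.09 and -0.14 without control replicate 1, and RpL40 was -0.14 without mutant replicate 2.

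The size of the difference varied far more between members in one mutant library than in the other. This was seen over the 85 members with a mean of at least 10 CPM, compared one library at a time on the log2 CPM scale. In mutant replicate 1 the members lay a median of -0.43 from the control mean, with an interquartile range only 0.189 wide. In mutant replicate 2 the median was -0.86 and the interquartile range was 0.684 wide. Below 0 lay 84 members in replicate 1 and 83 in replicate 2, while 24 and 60 lay below -0.5.

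The 1760 other genes with at least 100 CPM had medians of 0.06 and 0.15 in these contrasts, with interquartile ranges 0.340 and 0.470 wide. In replicate 1 the members were thus spread over a narrower range than other abundant genes, and in replicate 2 over a wider one. Of the 88 tested members, 72 were lowest in mutant replicate 2, or 81.8% beside 34.6% of all tested genes. Another 15 were lowest in replicate 1, or 17.0% beside 19.4%. The control libraries differed less, with replicate 2 a median of -0.18 from replicate 1 and an interquartile range 0.205 wide.

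**Figure D3:**
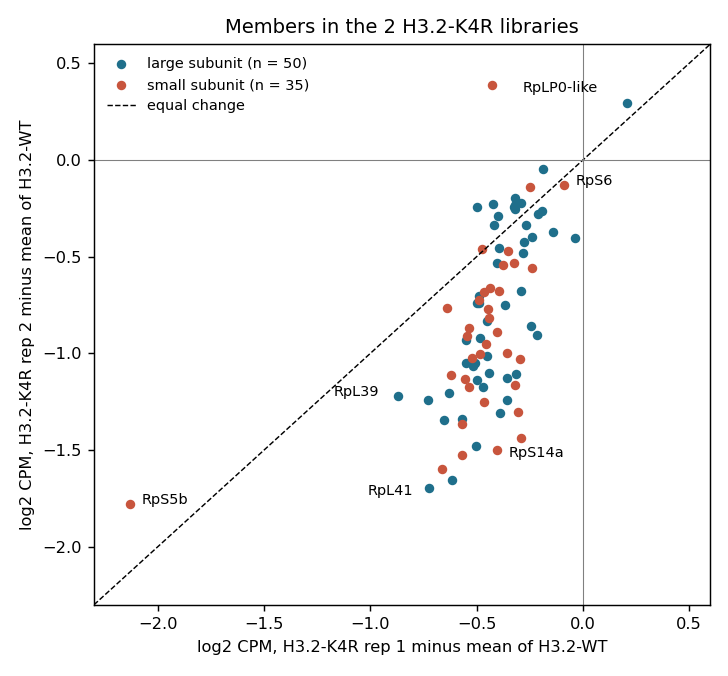
Each point is 1 of 85 members with a mean of at least 10 CPM, placed by its log2 difference from the control mean in mutant replicate 1 (horizontal) and replicate 2 (vertical), with equal change dashed. Points form a narrow column around -0.43 horizontally and spread vertically around -0.86.

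Directly between the mutant libraries, members differed in size and direction on the log2 scale. The tandem copies RpS14b and RpS14a stood at the low end with -1.15 and -1.10. RpL22 and RpS5a followed with -1.04 and -0.998. RpS5b lay on the other side with 0.35. Altogether 34 members lay below -0.5 and 15 lay above 0 in this contrast, among them RpL5, RpL7, RpL10 and RpS27A.

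RpL22, a protein at the outside of the large subunit, shares 34.3% of its exon bases with CR42491 on the same strand, where pairs were not assigned. It had 326 and 335 CPM in the controls and 216 and 105 CPM in the mutants. Its log2 fold change was -1.04 ± 0.29 (SE, adjusted p = 0.169 in edgeR and 0.0104 in DESeq2). The value was -0.62 without mutant replicate 2 and -1.66 without mutant replicate 1, the latter with an adjusted p of 0.00213 in edgeR.

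In 14 cases a member could be paired with a second copy or a relative of the same name, and the same copy had the higher count in every library. The uniquely mapped pairs alone were counted, so the level of a copy nearly identical to its partner can be understated. Ratios of copies within a library do not depend on the scaling of the libraries.

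The pair RpS5a and RpS5b had the widest difference in its copy ratio between the groups. RpS5a (chromosome X, 17143588 to 17148264, minus strand, host of 14 annotated small nucleolar RNAs) is the general copy, and RpS5b (chromosome 3R, 14900432 to 14901563, minus strand) is known from the ovary. RpS5b had 63.6 and 26.2 CPM in the controls and 9.34 and 11.9 CPM in the mutants. It separated the groups, although the control libraries differed more from each other than the mutant libraries did. Its log2 fold change was -2.08 ± 0.39 (SE) with a 95% interval from -2.97 to -1.19, the lowest of all members, and its adjusted p was 0.076 in edgeR. Without control replicate 1 the value was -1.29, with an adjusted p of 0.205.

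RpS5a had 1130 and 828 CPM in the controls and 783 and 392 CPM in the mutants. RpS5b therefore made up 5.33% and 3.07% of the pairs counted for both copies in the controls and 1.18% and 2.94% in the mutants. The shares did not overlap, but control replicate 2 and mutant replicate 2 were close, with Wilson 95% intervals of 2.91% to 3.25% and 2.68% to 3.23%. The log2 ratio of RpS5b to RpS5a differed between mutants and controls by -1.15, beside a pooled SD between replicates of 0.79. That difference was -0.74 without control replicate 1, -0.48 without mutant replicate 1 and -1.83 without mutant replicate 2.

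Germ line markers had no common direction. Of the 14 tested, 7 lay below 0 and 7 above, beside 51.9% and 48.1% of all tested genes, and 0 passed in edgeR. At an unadjusted p under 0.05, 1 lay lower and 2 higher, beside 9.2% and 7.68%. DESeq2 called 2 higher, beside 3.58% of the genes it tested, and limma-voom called 0. The summed level of the germ line markers was 452 and 483 CPM in the controls and 503 and 559 CPM in the mutants. The defining germ cell helicase gene vas had 6.49 and 8.41 CPM in the controls and 15.2 and 15.5 CPM in the mutants. Of the 5 dividing-cell markers, 4 lay above 0 and 1 below, beside 48.1% and 51.9% of all tested genes. The 1 below, the mitotic cyclin CycB, had 65.3, 7.82, 25.4 and 14.995 CPM and was, unlike the other 4, highest in control replicate 1. It was singled out after its values were seen, and its relation to RpS5b was not tested.

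RpLP0-like and RpL24-like made up larger shares of their pairs in both mutant libraries. The first (chromosome 2R, 10098518 to 10099590, minus strand) and the second (chromosome 3R, 11430740 to 11431582, minus strand) resemble proteins that in yeast act as assembly factors and leave before the ribosome is used. RpS14b, RpS15Ab and RpL22-like also made up larger shares of their pairs in both mutant libraries. Their log2 ratios differed by 0.09, 0.25 and 0.64, with pooled SDs of 0.05, 0.12 and 0.61. RpLP0-like had 48.0 and 47.6 CPM in the controls and 55.2 and 58.7 CPM in the mutants, above the controls in both. Its log2 fold change was 0.25 ± 0.15 (SE) with a 95% interval from -0.10 to 0.61. RpL24-like had 85.9 and 74.0 CPM in the controls and 77.7 and 60.4 CPM in the mutants, which overlapped.

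Against its partner, RpLP0-like made up 3.03% and 3.39% of the pair in the controls and 4.67% and 8.17% in the mutants, a difference of the log2 ratio of 0.99 with a pooled SD of 0.44. This was 0.57 without mutant replicate 2. RpL24 had 947 and 817 CPM in the controls and 601 and 425 CPM in the mutants. RpL24-like made up 8.32% and 8.31% of its pair in the controls and 11.4% and 12.4% in the mutants, a difference of the log2 ratio of 0.58 with a pooled SD of 0.068. Of the pairs with a ratio in every library, this difference was the largest relative to its replicate spread.

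**Figure D4:**
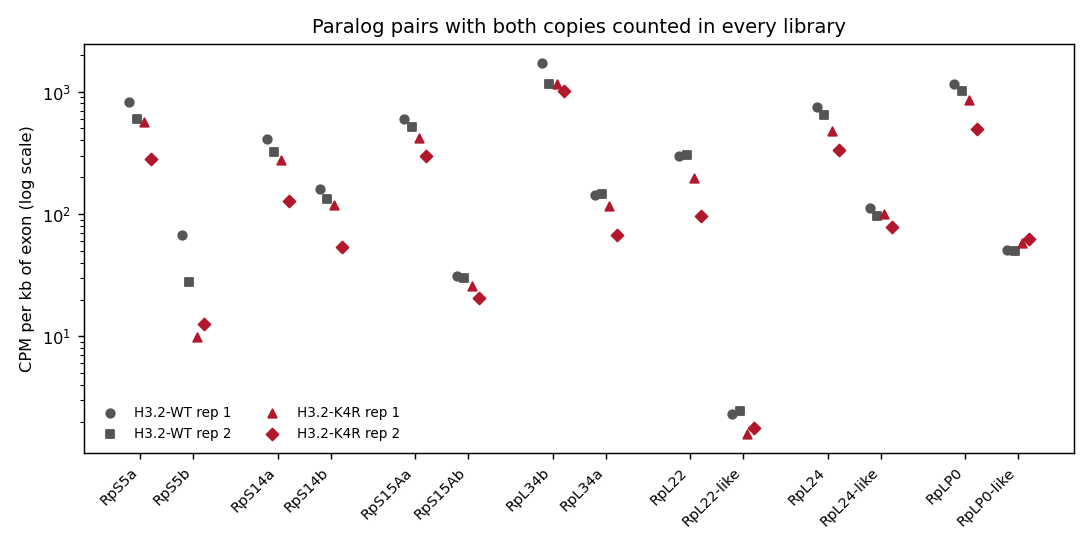
Level of both copies of 7 pairs in CPM per kilobase of exon on a log axis, with 1 point per library, grey for controls and red for mutants. RpS5b lies lower in both mutant libraries, RpLP0-like lies slightly higher, and RpS14a and RpS14b step down in parallel.

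Other expressed copies lay lower beside partners that lay lower as well. RpS14a (chromosome X, 7933742 to 7934677) and RpS14b (chromosome X, 7934898 to 7935792) lie side by side on the plus strand and encode a protein of the platform of the small subunit. RpS14a had 360 and 280 CPM in the controls and 240 and 112 CPM in the mutants, and RpS14b had 95.3, 78.6, 70.8 and 32.0. RpS14b made up 20.9%, 21.9%, 22.8% and 22.2% of the pair, so the copies kept nearly the same proportion even in mutant replicate 2, where both were at their lowest.

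RpS15Ab was 3.85% and 4.32% of its pair with RpS15Aa in the controls and 4.56% and 5.08% in the mutants. Its own level was 22.4, 21.8, 18.7 and 15.02 CPM. RpL34a was 5.29%, 7.85%, 6.32% and 4.28% of its pair with RpL34b, with the groups overlapping. RpL34b itself had 1602 and 1070 CPM in the controls and 1077 and 938 CPM in the mutants, where control replicate 2 lay just below mutant replicate 1. RpL22-like, which in flies is used mainly in the testis, was 0.865%, 0.893%, 0.895% and 2.06% of its pair with RpL22. The last of these shares is that of mutant replicate 2, where RpL22 was at its lowest, and RpL22-like itself stayed between 1.95 and 3.02 CPM.

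Further copies were at or near background. RpS10a had at most 0.587 CPM and RpS19b had 13, 33, 29 and 0 counts, both far under their partners. RpS10b had 843, 741, 618 and 396 CPM and RpS19a had 955, 720, 674 and 406 CPM, each without overlap of the groups and lowest in mutant replicate 2. Copies whose partners were at or near 0 counts included RpS28b, with 1143, 932, 784 and 646 CPM, and RpL37a (not to be confused with RpL37A), with 868, 768, 673 and 608 CPM. The 5 members that did not pass the filter were RpL37b, RpL10Aa, RpS28a, RpS28-like and RpL7-like. RpL37b had 8 and 3 counts in the controls and 0 in both mutant libraries, where a count of 0 allows up to 0.0105% and 0.0136% of its pair. RpS28-like had 3, 7, 1 and 0 counts, RpS28a had 11 in mutant replicate 1 and 0 elsewhere, and RpL10Aa had 0 in all libraries. RpL7-like also had 0, but 98.8% of its exon bases are shared on the same strand with CG34164, and pairs there were not assigned to a gene, so its level was not measured. Its partner RpL7 had 2099, 2050, 1654 and 1751 CPM. The testis markers dj and aly were at 0 in all libraries as well.

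Length did not order the members. Over the 88 tested members Spearman's rho between exon length and log2 fold change was -0.031. The members share their libraries and depth, so this is a description. The 29 members with the shortest exons, 288 to 730 bases, had a median log2 fold change of -0.61. The 29 in the middle, 754 to 1018 bases, had -0.63 and the 30 longest, 1018 to 3835 bases, had -0.64. Within the 85 members with at least 10 CPM, rho was 0.097 for mutant replicate 1 and -0.079 for replicate 2 against the control mean.

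Members were shorter than other genes, with a median exon length of 909.5 bases beside 1902.5 for all tested genes. Short genes outside the family also had a median below that of all genes. The 3771 other tested genes of 288 to 1432 bases had a median log2 fold change of -0.11, and the 241 of them with at least 100 CPM had -0.25, with 166 below 0. After a smooth trend with exon length was removed from all genes, the median of the members was -0.53 and that of all genes -0.06.

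**Figure D5:**
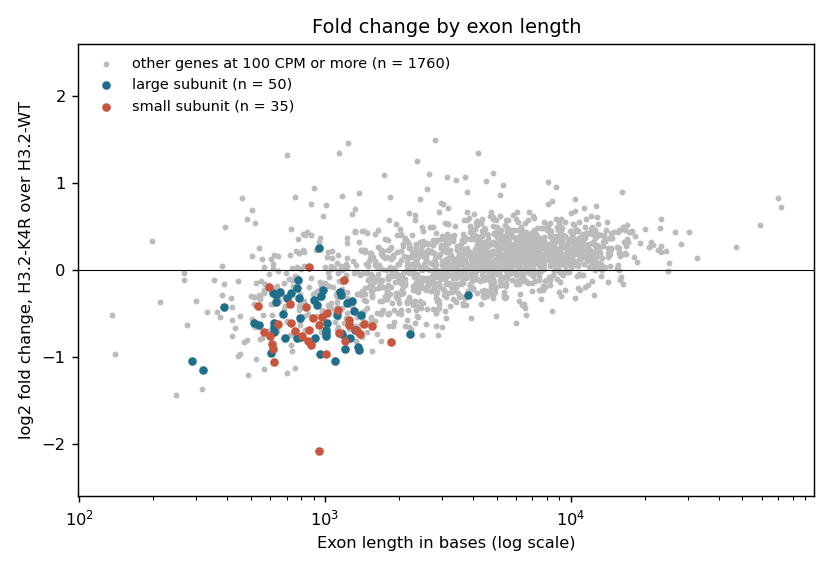
Fitted log2 fold change against exon length in bases (log axis) for the 85 members with a mean of at least 10 CPM, coloured by subunit, and for 1760 other genes with at least 100 CPM in grey. Nearly all members lie below 0, and the lowest is RpS5b at -2.08.

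Other features of gene structure were weakly related to the fold change. Ribosomal protein genes are known hosts of small nucleolar RNAs, which guide the modification of ribosomal RNA, and 29 of the 88 members held at least 1 within their bounds on the same strand, or 33.0%, beside 0.826% of all tested genes. The hosts had a median log2 fold change of -0.69 and the 59 other members -0.62. Coding length, number of exons and length of the 5′ untranslated region had rho values of 0.091, -0.038 and 0.121 with the fold change. Mean level had the highest, 0.32, with more abundant members nearer to 0. By chromosome the medians were -0.55 on 2L (17 members), -0.66 on 2R (20), -0.66 on 3L (14), -0.60 on 3R (21) and -0.63 on X (15).

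Of 29 ribosome biogenesis genes, 24 lay below 0, beside 51.9% of all tested genes, with a median log2 fold change of -0.23. At an unadjusted p under 0.05, 5 lay lower and 0 higher, beside 9.2% and 7.68% of all tested genes. In edgeR 0 biogenesis genes passed the adjusted threshold. DESeq2 called 1 of them lower, beside 3.07% of all genes it tested, and limma-voom 0. The smallest p was that of hoip, a protein of the box C/D snoRNA particle, with 34.4 and 37.9 CPM in the controls and 23.3 and 21.5 CPM in the mutants. The 2'-O-methyltransferase gene Fib had 61.9, 57.3, 44.1 and 32.0 CPM. Both were named for their low p and kept the groups apart, with adjusted p of 0.135 and 0.186 in edgeR.

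The RNA polymerase I list had 7 genes with a median of -0.46. Below 0 lay 6 of the 7, beside 51.9% of all tested genes, and 0 passed the adjusted threshold in edgeR. At an unadjusted p under 0.05, 2 lay lower and 0 higher, beside 9.2% and 7.68%. DESeq2 and limma-voom called 0. One entry of the list, CG33051, is now named as a subunit of RNA polymerase III. The elongation and TOR list held 19 genes with a median of 0.08, among them the transcription factor genes dm, Max, Mnt and crol. Below 0 lay 8 and above 0 lay 11, beside 51.9% and 48.1% of all tested genes. Among its elongation factor genes, Ef1beta (-0.61), EF2 (-0.29), Ef1gamma (-0.20) and Ef1alpha48D (-0.10) lay below 0, and eEF1delta (0.22) and Ef1alpha100E (0.19) above. At an unadjusted p under 0.05, 2 of the 19 lay lower and 3 higher, beside 9.2% and 7.68%, and 0 passed the adjusted threshold in edgeR. DESeq2 called 1 lower and 2 higher, beside 3.07% and 3.58% of the genes it tested, and limma-voom 0. Within this list Ef1beta, the exchange factor of elongation, had 444 and 418 CPM in the controls and 313 and 250 CPM in the mutants. Thor, the TOR-regulated brake on cap-dependent translation, had 330, 211, 532 and 437 CPM. They lay in opposite directions, and neither passed the test, with adjusted p of 0.143 and 0.152 in edgeR.

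The list for the response to loss of a ribosomal protein gene held 17 genes, regulators as well as responding genes. It was chosen with earlier results of these data known, so its counts are a description. Of the 17, 2 rose in edgeR and 0 fell, beside 0.415% and 0.173% of all tested genes. Above 0 lay 15 of the 17, beside 48.1% of all tested genes, with a median of 0.40. At an unadjusted p under 0.05, 9 lay higher and 0 lower, beside 7.68% and 9.2% of all tested genes. DESeq2 called 5 higher and limma-voom 2, beside 3.58% and 0.874% of the genes they tested. Xrp1, the transcription factor that drives that response in Minute cells, had 839 and 732 CPM in the controls and 1710 and 1705 CPM in the mutants. It rose by 1.12 ± 0.15 on the log2 scale (SE, adjusted p = 0.0291 in edgeR). Gadd45, a stress gene, had 36.3 and 32.8 CPM in the controls and 103 and 82.6 CPM in the mutants, and it rose by 1.43 ± 0.18 (SE, adjusted p = 0.0248 in edgeR). With either control replicate 1 or control replicate 2 left out 0 genes of this list passed, and 5 passed without mutant replicate 1, beside 2.1% of all genes then tested. The cytokine gene upd3 had 1.97, 2.85, 7.39 and 16.0 CPM and did not pass, with an adjusted p of 0.0812 in edgeR.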

How the data were processed

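Total RNA of 4 libraries of whole embryos was sequenced after depletion of ribosomal RNA with a Tecan Drosophila kit from about 0.25 µg of RNA, per the labels' protocols. The deposited values are raw counts. Per the file header, featureCounts 2.0.6 counted read pairs as 1 fragment on exons of each gene on the stranded setting, without multi-mapping pairs or pairs that overlap several genes. STAR 2.7.7a, SAMtools 1.9, Subread 2.0.6 and dm6 are named in the submitters' processing notes. The table also gives each gene's exon length in bases, of other unit than the deposited counts. Its wild-type columns, called HWT, were taken as H3.2-WT by stage and replicate number. Precision follows the depth of 33882742 to 45509930 counted pairs per library.

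From the counts, edgeR 4.0.16 in R 4.3.3 was run with TMM scaling, filterByExpr (minimum count 10, minimum total 15) and the quasi-likelihood test of the mutants against the controls over all 11562 genes that passed, with Benjamini-Hochberg adjustment at 0.05. Folds are log2 of the mutants over the controls. The alternatives were RLE scaling, total counts, TMM without the members, no filter, leaving out each library, a replicate block, DESeq2 1.42.0, voom of limma 3.58.1 and an offset for exon length (loess span 0.5). Contrasts of single libraries and copy ratios used log2 CPM without a prior count, and the check of replicate numbers a prior count of 2. The scripts were tested on simulated data. Gene structure came from Ensembl's annotation and current names from RefSeq's Release 6. Promoter letters were planned and were not analysed here.

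Members and lists were chosen with earlier results of these data known. Named are, per subunit, the 6 members with the lowest p, the 3 highest and the 3 lowest per length, all copies, members above 0, members not tested, members of known role, the 3 genes with the lowest p of each other list, and the 5 members that differed most within a group. Some members that this rule picks are not reported here. The marker lists covered muscle, neuron, glia, cuticle, fat body with hemocytes, germ line, testis, neuroblasts and dividing cells.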

Additional observations from a re-analysis of the deposited data

How the results depend on the processing

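The number of members called differed between alternatives. Against 0 members called lower, the count was 56 with no filter on low counts, 43 with DESeq2, 6 with limma-voom, 62 with a replicate block (beside 6.56% of all tested genes) and between 0 and 50 when 1 library was left out. The 50 were called without mutant replicate 1, and 0 without any other library. With 1 library left out, a group of 1 is assumed to vary like the other group. A replicate block fits a further term to the same libraries, so less is left to estimate the spread. Higher calls were 0 under every alternative run. The labels do not say whether libraries of the same replicate number were paired. Deviations from the group means correlated at 0.106 between libraries of the same number. With 2 libraries per group the value is the same for both numbers by construction, so it cannot decide whether there was pairing.

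With 1 library left out, the median log2 fold change of -0.62 ranged from -0.87 to -0.44, the difference between the subunit medians from 0.0279 to 0.215, and rho with exon length from -0.051 to 0.047. The direction reversed for 3 named members, all close to 0 or at low counts. With 1 library left out RpS10a ranged from -2.86 to 0.29 and was 0.16 without control replicate 1, and RpS19b ranged from -7.42 to 0.31, both highest without mutant replicate 2. RpS6 was 0.0010 with the exon-length trend removed. Over the 12 alternatives, 422 of 540 values of the 45 named members kept direction and side of the threshold, 114 passed the threshold and 4 reversed. The cause was not tested. Depth limits RpS10a, RpS19b and the members not tested other than RpL7-like, which is limited by exon bases shared with another gene. The rest are limited by 2 libraries per group.

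Marker lists not given above had these summed levels in control replicates 1 and 2 and mutant replicates 1 and 2: glia 105, 128, 89.1 and 84.5 CPM, cuticle 5121, 5612, 5367 and 4939 CPM, fat body with hemocytes 178, 185, 218 and 245 CPM, nearly all of it from Hml and srp, neuroblasts 322, 364, 406 and 484 CPM, and dividing cells 206, 152, 190 and 216 CPM. Of the neuroblast sum, brat held 253, 277, 311 and 382 CPM. Of the 6 neuroblast markers, 5 lay above 0 and 1 below, beside 48.1% and 51.9% of all tested genes. At an unadjusted p under 0.05 in edgeR, 3 neuroblast and 2 dividing-cell markers lay higher and 0 lower, beside 7.68% and 9.2%. In edgeR 0 of either list passed. DESeq2 called 1 of each list higher, beside 3.58% of the genes it tested, and limma-voom 0.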
